A study of Mus musculus with 9 samples.

Results

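The transcript isoforms of subcutaneous adipose tissue were compared between 6 libraries from mice with an endothelial AGO1 knockout and 3 from wild-type mice. The members are the transcripts of genes with a mean summed TPM (transcript abundance scaled to length and to a fixed library total) of 5 or more over all libraries and at least 2 transcripts in the deposited tables. By this rule 64609 of 113193 transcripts were members, from 9755 of 35150 genes. A transcript's share is its TPM as a percentage of the summed TPM of its gene in the same library.

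RNA of whole subcutaneous fat from C57BL/6 mice aged 24 weeks was sequenced in 9 libraries, 3 per group. The group labels read WT, Hete KO and Homo KO. The series title names the knockouts as endothelial and the WT mice as their littermates. The driver and the floxed or deleted allele of the knockout, the sex of the mice and what the WT littermates carry are details not given in the sources used here. Hete KO and Homo KO libraries together are called KO here. The study asked which molecular changes underlie the metabolic phenotype of the knockout mice. In whole tissue, fewer cells of a type and less RNA per cell cannot be told apart.

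AGO1 is an Argonaute protein that binds microRNAs and represses the mRNAs they pair with, mostly through sites in the 3′ untranslated region (UTR). One gene gives several transcripts through alternative promoters, alternative splicing and alternative polyadenylation, and these can differ in protein, in UTR and in stability. Transcripts with a stop codon well upstream of the last splice junction are substrates of nonsense-mediated decay, and transcripts that retain an intron are often kept in the nucleus and not translated. Adipose tissue uses isoforms of known effect, such as those of Pparg, the master regulator of fat cell differentiation, and Insr, the insulin receptor.

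The libraries held 20843427 to 28252001 estimated counts. The 10 adipocyte markers summed to between 12648 and 18648 TPM and the 12 endothelial markers to between 413 and 769 TPM. Adipocyte and endothelial transcripts were thus present in all 9 libraries, and these sums do not tell the fat depot. In all, 3 sets of libraries stood apart. The 18 skeletal muscle markers summed to 10300 TPM (WT 1), 8860 (WT 2) and 24757 (Hete KO 2), against 39.9 to 1239 in the other 6. In Hete KO 2 the muscle sum exceeded the adipocyte sum of 13967 TPM. The 14 liver markers found summed to 1153 TPM in WT 2 and 996 in WT 3, against 84 to 234 in the other 7. Homo KO 2 had an inferred mean fragment length of 267.9 bases, against 185.4 to 199.9 in the other 8. Lymphocyte markers summed to between 27.6 and 51.5 TPM, mammary epithelial markers to between 0.789 and 8.52 TPM, and macrophage markers to between 320 and 1034 TPM.

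EdgeR's usage test called 240 of 44695 tested transcripts between KO and WT (0.537%), 133 of them higher (0.298%) and 107 lower (0.239%) in KO. Usage is the change of a transcript against the other transcripts of its gene, tested with edgeR's diffSpliceDGE at an adjusted p under 0.05. On simulated data this test called more unchanged transcripts than its threshold allows, so some of the 240 may be false calls. An unadjusted p under 0.05 was reached by 1776 of the tested transcripts (3.97%). The calls fell in 235 of 9252 genes (2.54%), and edgeR's F test over all transcripts of a gene called 122 genes (1.32%). In 85 of the 240 the shares of all 6 KO libraries lay above or below those of all 3 WT libraries, which held for 3.93% of all tested transcripts. A difference in mean share of 10 percentage points or more in addition held for 42 of the 240, 20 higher and 22 lower in KO, and these 42 are 0.094% of the tested transcripts. Shares that do not overlap and differ by 10 points or more, whatever the adjusted p, were found for 665 of the 44695 tested transcripts (1.49%). The calls depended on the test: limma's diffSplice called 147 transcripts, of which 17 were among the 240, and limma on the arcsine square root of the share called 10, of which 8 were. Of the 42, 14 passed at least one of these 2 other tests.

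**Figure D1:**
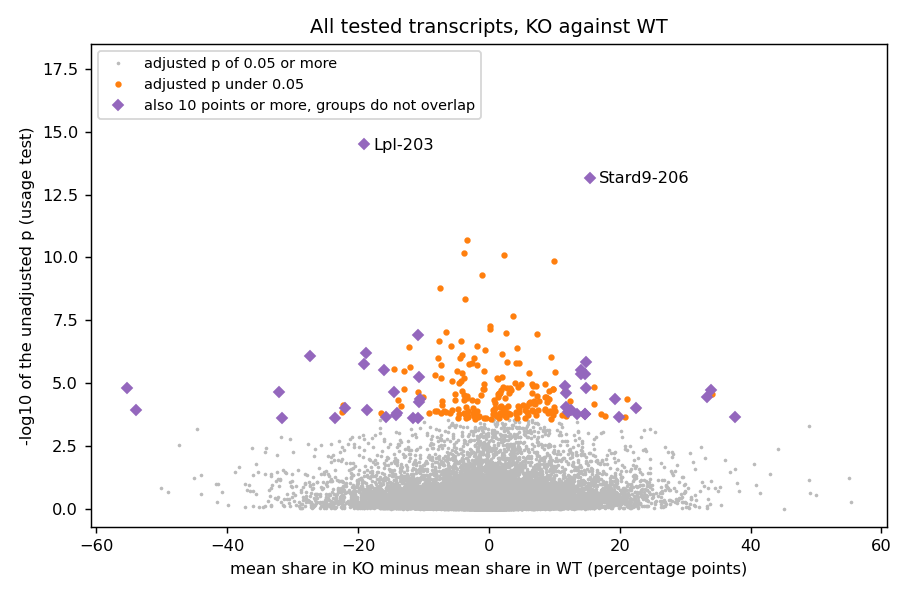
Each point is a tested transcript, with the difference in mean share (KO minus WT, percentage points) on the horizontal axis and −log10 of the unadjusted p of edgeR's usage test on the vertical axis. Orange points are the 240 called transcripts and purple diamonds the 42 that also differ by 10 points or more with groups that do not overlap; Lpl-203 and Stard9-206 have the smallest p among the diamonds.

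Lpl-203, a transcript of lipoprotein lipase, had the smallest p. Lipoprotein lipase hydrolyses circulating triglycerides at the capillary wall and feeds the fatty acids to fat cells. Lpl-203 spans chr8:68880555-68907448 on the plus strand (mm10) and holds the same 1422-base coding sequence as the major transcript Lpl-201. It leaves the last exon of Lpl-201 early and splices to an exon of 216 bases at chr8:68907233-68907448, so its 3′ UTR has 278 bases against 2429 in Lpl-201, and the annotation classes it as a nonsense-mediated decay transcript. Lpl-203 made up 13.8, 16.9 and 32.5% of Lpl in WT 1, 2 and 3. Hete KO 1, 2 and 3 held 1.89, 1.85 and 1.05%, and Homo KO 1, 2 and 3 held 2.61, 2.10 and 2.17%. All 6 KO libraries were low and the groups did not overlap.

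The mean share of Lpl-203 fell from 21.03% ± 10.02 (SD, n = 3) in WT to 1.95% ± 0.514 (SD, n = 6) in KO, a usage log2 change of −2.58 (edgeR adjusted p = 1.39e-10). Its estimated counts were 15754, 12212 and 48082 in WT and between 779 and 2204 in KO, so the low group was still well above 0. Against WT alone the adjusted p was 2.35e-08 for Hete KO and 2.78e-07 for Homo KO, 2 comparisons that share the WT libraries. Lpl-201 took the complementary share, 75.9% ± 9.65 in WT and 94.1% ± 1.46 in KO. The whole gene, at a mean of 3051 TPM, did not pass at gene level, with a log2 fold change of −0.14 (SE 0.22, edgeR adjusted p = 0.737). Lpl-203 passed under 22 of 23 alternatives; it missed with limma on the arcsine share (adjusted p = 0.130). Without WT 1, WT 2 and Hete KO 2 its usage change was −3.06 (edgeR adjusted p = 9.5e-08), and without WT 2 and WT 3 it was −2.05 (adjusted p = 1e-05).

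**Figure D2:**
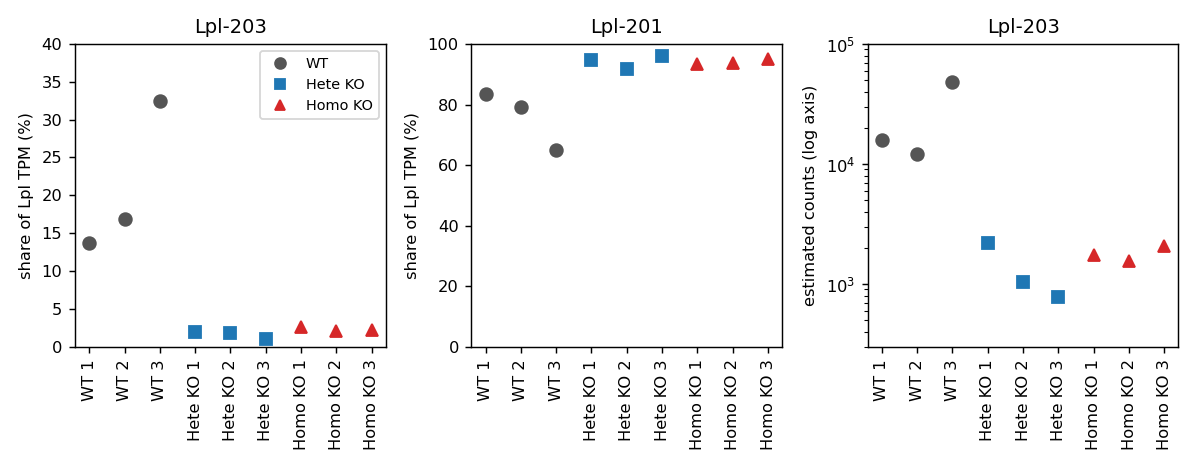
Share of Lpl TPM in Lpl-203 (left) and Lpl-201 (middle), in percent, and estimated counts of Lpl-203 on a log axis (right), 1 point per library. The 3 WT libraries lie at 13.8 to 32.5% for Lpl-203 and the 6 KO libraries at 1.05 to 2.61%.

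Sequences at the junctions that set the next isoforms apart are given 5′ to 3′ on the transcript strand, from the GENCODE M21 transcripts. Each holds the last 15 bases of an exon in lower case and the first 15 bases of the exon that follows in capitals, and no other transcript of the same gene holds that 30-base window. They are shown because reads across them tell apart transcripts that otherwise share most of their bases.
Stard9-206, exon 14 to 15: ctgaactttgaactgATAGACACGCTGACT
Stard9-203, exon 14 to 15: ctgaactttgaactgAGGAACTTCAGCTCA
Sun1-206, exon 8 to 9: acggggagtccctgtGTGACCTCTTGGTTC
Adi1-202, exon 1 to 2: cctgctttcctcttgCTAGATGCTGACAAG
Adi1-201, exon 1 to 2: gtgctctattggaagCTAGATGCTGACAAG
Mtmr11-203, exon 8 to 9: cagggccgtggaccgAGCAGTGGAGTCGAT
Apoc4-201, exon 1 to 2: tggtcagctttgtagCATCCATGTCTACAG
The pair for Stard9 shares its lower-case bases and differs in the exon joined next, while the pair for Adi1 shares its capital bases and differs in the first exon.

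Of the 42, the 15 with the smallest p were named, 1 per gene, and the 14 after Lpl are given in an order chosen after their values were seen. Stard9, a kinesin with a lipid-binding START domain, rose in its full-length transcript. Stard9-206 (chr2:120629121-120715881) carries the 13683-base coding sequence, while Stard9-203 includes 2 more exons, of 72 and 127 bases, that cut its coding sequence to 1350 bases. The share of Stard9-206 was 0.188, 0.00533 and 0.446% in WT, 8.55, 17.5 and 18.7% among Hete KO libraries and 13.3, 28.4 and 7.83% among Homo KO libraries (edgeR adjusted p = 1.52e-09). Every KO library exceeded every WT library, and Stard9-203 held 70.2% ± 5.70 in WT against 49.3% ± 5.53 in KO. Stard9-206 passed under 22 of 23 alternatives and missed with limma on the arcsine share (adjusted p = 0.187).

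Kifc3, a minus-end-directed kinesin, fell in Kifc3-202, the short transcript whose start lies 32093 bases from that of Kifc3-203. The share of Kifc3-202 was 10.8, 3.98 and 17.7% in WT and under 0.01% in all 6 KO libraries (adjusted p = 0.000339). Sun1, which links the nuclear lamina to the cytoskeleton, rose in Sun1-206, which lacks a 111-base exon of Sun1-201 at chr5:139231127-139231237. Sun1-206 had 0.721% in WT 1 and under 0.01% in WT 2 and 3, against 10.1, 24.8 and 11.2% among Hete KO libraries and 13.6, 14.2 and 16.2% among Homo KO libraries (adjusted p = 0.00202). Fblim1, a filamin-binding protein of cell-matrix junctions, fell in Fblim1-203, which has the same 1125-base coding sequence as Fblim1-202 and another first exon. Its share was 14.8, 16.9 and 17.6% in WT, 2.17% for Homo KO 1, and under 0.01% for each of the other 5 KO libraries (adjusted p = 0.00307). Sgce, a sarcoglycan of the dystrophin complex, rose in Sgce-209, which was at 0 in all WT libraries and held 8.34, 4.51 and 3.90% among Hete KO libraries and 23.6, 16.7 and 12.6% among Homo KO libraries (adjusted p = 0.00869).

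Adi1, an enzyme of the methionine salvage pathway, fell in the noncoding Adi1-202, which starts from its own 66-base first exon at chr12:28675484-28675549. The share of Adi1-202 was 29.9, 21.3 and 39.6% in WT, 7.45, 7.59 and 2.92% among Hete KO libraries, and 0, 0 and 0.00103% among Homo KO libraries (edgeR adjusted p = 0.00145). The 3 groups did not overlap for Adi1-202, and Homo KO lay below Hete KO (adjusted p = 0.0358). Azin2, an antizyme inhibitor that raises polyamine synthesis, rose in Azin2-202, which has the same coding sequence as Azin2-201. Azin2-202 was under 0.01% in all WT libraries, at 16.95, 0.00147 and 0.620% among Hete KO libraries and at 27.4, 21.8 and 17.6% among Homo KO libraries (adjusted p = 0.00319). The high values were thus in 4 of the 6 KO libraries. Mtmr11, a catalytically inactive member of the myotubularin phosphatase family, fell in the coding Mtmr11-201, with 10.1, 21.2 and 25.9% in WT and under 0.01% in all KO libraries (adjusted p = 0.00202). The NMD transcript Mtmr11-203 skips an 89-base exon of Mtmr11-201.

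Apoc4, an apolipoprotein made mainly by the liver, fell in Apoc4-201, from 36.5, 73.5 and 69.9% in WT to 12.4, 6.87 and 4.29% among Hete KO libraries and 0, 0 and 4.16% among Homo KO libraries (edgeR adjusted p = 0.00953). The retained-intron transcript Apoc4-202 took the remainder. The liver marker sum was high in WT 2 and WT 3, the libraries with the 2 highest shares, and without these 2 the usage log2 change was −2.54 (adjusted p = 1), against −3.52 with them. WT 1, whose liver marker sum was lower than in any KO library, held 36.5%. The choice of these transcripts requires that it lie above every KO library. The part of liver transcripts in this change was not tested. Apoc4-201 passed under 13 of 22 alternatives, and its call also ended without WT 2, WT 3, Hete KO 3 or Homo KO 1 alone (adjusted p of 0.0559 to 0.0886).

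Atp2b1, a calcium pump of the plasma membrane, rose in Atp2b1-209, a 1404-base transcript, from 2.03, 0 and 0% in WT to 15.3, 13.5 and 9.72% among Hete KO libraries and 15.1, 21.96 and 13.1% among Homo KO libraries (adjusted p = 0.00392). Adgrf5, an adhesion G protein-coupled receptor that endothelial cells express, fell in Adgrf5-204, a 491-base transcript model. Adgrf5-204 held 10.1, 12.4 and 11.9% in WT, 3.80% in Hete KO 2, 1.13% in Homo KO 2 and 0 in the other 4 KO libraries (adjusted p = 0.00459). Klhl13, a substrate adaptor of CUL3 ubiquitin ligase, rose in Klhl13-201, whose start lies 49903 bases from that of Klhl13-202. Klhl13-201 had under 0.01% in WT, 7.03, 25.6 and 25.4% among Hete KO libraries and 16.3, 4.87 and 9.31% among Homo KO libraries (adjusted p = 0.00392).

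Zfp606, a KRAB zinc finger protein, rose in Zfp606-205, from 0 in all WT libraries to 8.13, 13.1 and 15.6% among Hete KO libraries and 4.87, 26.3 and 21.1% among Homo KO libraries (edgeR adjusted p = 0.00921). Srp54b, a subunit of the signal recognition particle, fell in Srp54b-201, with 1.22, 32.3 and 23.1% in WT and at most 0.221% in KO (adjusted p = 0.00120). Srp54b has near-identical copies beside it in the genome, so its values are uncertain.

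None of these 15 genes passed at gene level, where the smallest adjusted p was 0.116. For 7 of them (Mtmr11, Fblim1, Atp2b1, Klhl13, Adgrf5, Sgce and Zfp606) the named transcript holds no 31-base window of its own within the gene, so its share rests on combinations of exons, ends and coverage. Lpl-203, Stard9-206, Mtmr11-201 and Fblim1-203 passed with limma's diffSplice, and Adi1-202, Mtmr11-201 and Fblim1-203 with limma on the arcsine share. Named transcripts at or near 0 in all WT or all KO libraries could pass the count filter only through the other side. A difference is thus built into the choice of those transcripts, and their p-values do not allow for it. Of the 15, Lpl-203, Stard9-206 and Kifc3-202 passed without the 2 libraries rich in liver transcripts. In that fit, which keeps 1 WT library, the usage log2 changes of the 15 were 65.9 to 102% of the reported ones, in the same direction. The direction had little room to turn here or in the next fit, since the choice required shares that do not overlap. Without the 3 rich in muscle transcripts, Lpl-203, Stard9-206, Kifc3-202, Srp54b-201, Mtmr11-201, Atp2b1-209 and Adgrf5-204 passed, and the other 8 had the same direction at 98.6 to 185%, again with 1 WT library.

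The alternatives passed ran from 13 of 22 for Apoc4-201 to 22 of 23 for Lpl-203 and Stard9-206. Zfp606-205 passed 15 of 21, and Atp2b1-209 and Sgce-209 each passed 17 of 22. Leaving out 1 library ended the call for Atp2b1-209 (without WT 2, adjusted p = 0.0513, and without WT 3, 0.0795), for Sgce-209 (without WT 3, 0.0898), for Zfp606-205 (without WT 3, 0.0913) and for Apoc4-201. The remaining 11 of the 15 passed in all 9 such fits.

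**Figure D3:**
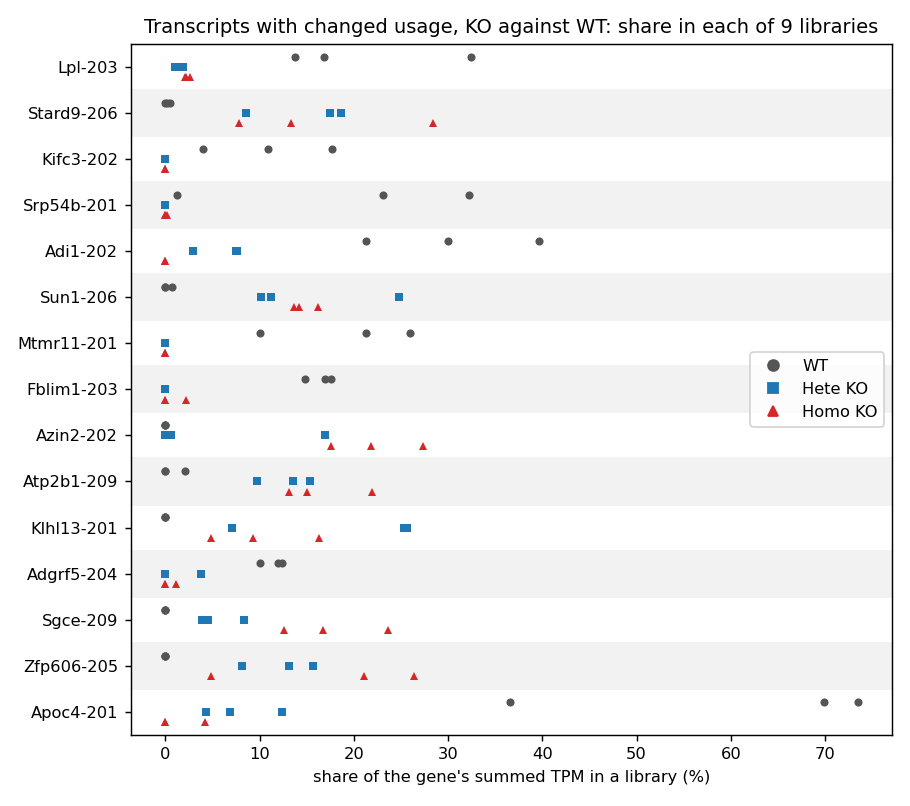
Share of its gene's TPM, in percent, of the 15 named transcripts in each of the 9 libraries (grey circles WT, blue squares Hete KO, red triangles Homo KO). In each line the 6 KO points lie all above or all below the 3 WT points, which the choice of these transcripts requires; Apoc4-201 has the widest gap, with 36.5% as the lowest WT and 12.4% as the highest KO value.

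What the 42 transcripts share in structure was read against the transcript of the same gene that moved most the other way. In 25 of 42 (59.5%) the first exon ended at another position than in that partner, against 71.4% of all tested transcripts paired by the same rule. The last exon started elsewhere in 17 (40.5%), against 70.2%. Both members of the pair had a coding sequence in 32 cases (76.2%), against 39.3%, and in 9 of those 32 (28.1%) the coding sequence was identical, as for Lpl, Fblim1 and Azin2, against 12.8%. These shares are descriptions with no test. Of the 42, 12 had no 31-base window of their own.

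Called transcripts were long, minor and near 0 in part of the libraries. Their median length was 2482.5 bases, against 1748 over all tested transcripts, and their median mean share was 3.63%, against 11.3%. At least one library had under 0.5 estimated counts in 230 of the 240 (95.8%), against 27.8% of all tested transcripts. All 3 WT libraries were under 0.5 counts in 110 called and 429 tested transcripts, and all 6 KO libraries in 14 called and 15 tested. Such transcripts could pass the count filter only through the libraries of the other side. A difference between WT and KO is thus built into their choice, and their p-values do not allow for it. The called parts of these sets are descriptions only. No own 31-base window was found in 34.6% of the called and 10.2% of the tested transcripts. By annotated class, calls made up 1.002% of 2994 nonsense-mediated decay transcripts (20 higher, 10 lower), 0.758% of 23734 protein-coding, 0.320% of 5617 processed and 0.0976% of 12298 retained-intron transcripts. The shares that did not overlap between groups were alike over the 4 classes, from 3.76 to 3.98%. Of the 235 genes with a call, 6 (2.55%) passed at gene level, as did 246 of the 9252 tested (2.66%).

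At least 0.5 counts were seen in every library for 10 of the 240 transcripts, which were picked after their values were seen. Of these, 9 were lower in KO and Arpp19-209 was higher. Besides Lpl-203, the groups did not overlap for 5 of them. Myl6-203, from the gene of a nonmuscle and smooth muscle myosin light chain, had 3.29, 7.77 and 3.45% in WT, 1.55, 2.30 and 1.61% among Hete KO libraries and 1.74, 0.612 and 0.899% among Homo KO libraries (adjusted p = 0.0161). Ash1l-202, from a histone methyltransferase gene, holds the same 8874-base coding sequence as Ash1l-201 behind another first exon, and had 13.2, 23.2 and 13.6% in WT against 2.72 to 8.31% in KO (adjusted p = 0.0203).

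Sin3a-204, from the gene of a corepressor scaffold, has the same 3822-base coding sequence as Sin3a-201. It starts with 2 exons, of 8 and 108 bases, that Sin3a-201 lacks. It had 25.7, 25.9 and 39.99% in WT, 21.98% in Hete KO 2 and between 1.21 and 6.44% in the other 5 KO libraries (edgeR adjusted p = 0.0483). Resf1-201, from a gene that silences endogenous retroviruses, had 9.17, 28.1 and 16.7% in WT against 0.865 to 7.56% in KO (adjusted p = 0.0365). Rnf20-209, from the gene of a histone H2B ubiquitin ligase, had 10.05, 37.5 and 13.9% in WT against 1.04 to 9.76% in KO (adjusted p = 0.0463). All 5 passed with limma's diffSplice too, where the adjusted p was between 0.000601 and 0.0163. Of 31-base windows of its own within the gene, Ash1l-202 holds 376, Myl6-203 and Resf1-201 28 each, Sin3a-204 7 and Rnf20-209 0. WT 2, the library high in both muscle and liver transcripts, was the highest WT library for 4 of the 5. None of the 5 passed without the 2 liver libraries or without the 3 muscle libraries, where the usage log2 changes kept their direction at 53.7 to 89.3% and 68.9 to 130% of the reported ones. These 5 were taken for shares that do not overlap, which left that direction little room to turn. All 5 calls also ended without WT 2 alone. Myl6-203, Ash1l-202, Sin3a-204, Resf1-201 and Rnf20-209 passed in 6, 5, 3, 2 and 2 of the 9 fits that leave out 1 library. In the other such fits the edgeR adjusted p reached 0.980.

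The KO groups were also set against WT one at a time, with the WT libraries shared. Hete KO differed from WT in the usage of 176 transcripts (0.394%), 100 higher and 76 lower, and Homo KO in 278 (0.622%), 174 higher and 104 lower. Homo KO differed from Hete KO in 152 (0.34%), 83 higher and 69 lower, of which 40 were among the 240. Among the named transcripts, Adi1-202, Phf3-201 and Azin2-201 were lower in Homo KO than in Hete KO and Ccser2-201 was higher. Azin2-201, the other main transcript of the antizyme inhibitor gene, had a usage log2 difference of −3.83 between Homo KO and Hete KO (edgeR adjusted p = 0.0162). Without Homo KO 2, the library with the long fragments, Homo KO differed from Hete KO in 65 transcripts and from WT in 105.

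Leading transcripts, those with the largest share of their gene, were the same in all 9 libraries in 4710 of the 9755 genes (48.3%). The leader by mean share differed between WT and KO in 1426 genes, between Hete KO and Homo KO in 1394, between WT and Hete KO in 1517 and between WT and Homo KO in 1646. WT against KO sets a mean of 3 libraries against a mean of 6, so its number is not on a par with the others. Of those, each from means of 3 libraries, both numbers against WT were above the one between the 2 KO groups. These differences were not tested. In 18 of the 9755 genes one transcript led in all 3 WT libraries and another in all 6 KO libraries. Choosing genes this way fixes which of both transcripts is the larger in every library. None of the 36 leading transcripts passed edgeR's usage test, with a smallest adjusted p of 0.672. Of the 56 other tested transcripts of these genes, Dmac2-202 passed (adjusted p = 0.00869). Poc1b-204, Poc1b-201, Spry1-203 and Spry1-201 passed limma's diffSplice and Tfr2-202 limma on the arcsine share.

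Spry1 encodes an inhibitor of receptor tyrosine kinase signalling, and its pair of leaders share a 939-base coding sequence and differ in the first exon. Spry1-203 had 79.9, 43.7 and 53.2% in WT, 46.6, 19.03 and 21.5% among Hete KO libraries and 27.6, 18.3 and 7.11% among Homo KO libraries. Spry1-201 exceeded Spry1-203 in each KO library, as the choice of these genes requires. It rose by limma's diffSplice (adjusted p = 0.0349). The share of Spry1-201 was 29.5% ± 15.4 in WT and 66.3% ± 9.26 in KO. Poc1b, a centriole protein gene, went from Poc1b-204 (56.6% ± 7.19 in WT, 26.3% ± 5.73 in KO) to Poc1b-201 (24.4% ± 10.98 in WT, 53.8% ± 7.68 in KO). Their coding sequences have 1302 and 1428 bases, and the groups did not overlap for either.

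Shmt2, the mitochondrial serine hydroxymethyltransferase of one-carbon metabolism, had Shmt2-206 at 62.7% ± 13.4 in WT and 18.6% ± 18.2 in KO, against 30.2% ± 18.6 and 64.8% ± 17.9 for Shmt2-201. The KO values of Shmt2-206 ran from 0 to 36.4%, all below the lowest WT value of 54.4%. Tfr2, an iron-sensing transferrin receptor, had the short Tfr2-202 at 19.3% ± 3.14 in WT and 68.2% ± 9.53 in KO. Tfr2 also fell at gene level (log2 fold change −2.03, SE 0.27, edgeR adjusted p = 0.0258), as did Itgad, an integrin of macrophages (−2.77, SE 0.51, adjusted p = 0.0406). Itgad-203 had 11.05% ± 8.94 of Itgad in WT and 66.1% ± 16.96 in KO. For the WT leader Itgad-204, edgeR's usage change was positive, against the direction of its share, and did not pass. The macrophage marker sum was 633 to 1034 TPM in WT and 320 to 728 in KO. Its part in the Itgad result was not tested. The liver marker sum was 1153 TPM in WT 2 and 996 in WT 3, against at most 234 in the other libraries. The part of liver transcripts in the fall of Tfr2 and in its shares was not tested. In the other 13 genes, which include the splicing factor gene Hnrnpu, the catenin gene Ctnnd1 and the matrix gene Tgfbi, the mean share of the WT leader was between 4.22 and 24.0 percentage points lower in KO. The choice of these genes left that share little room to rise, so these falls are descriptions only.

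**Figure D4:**
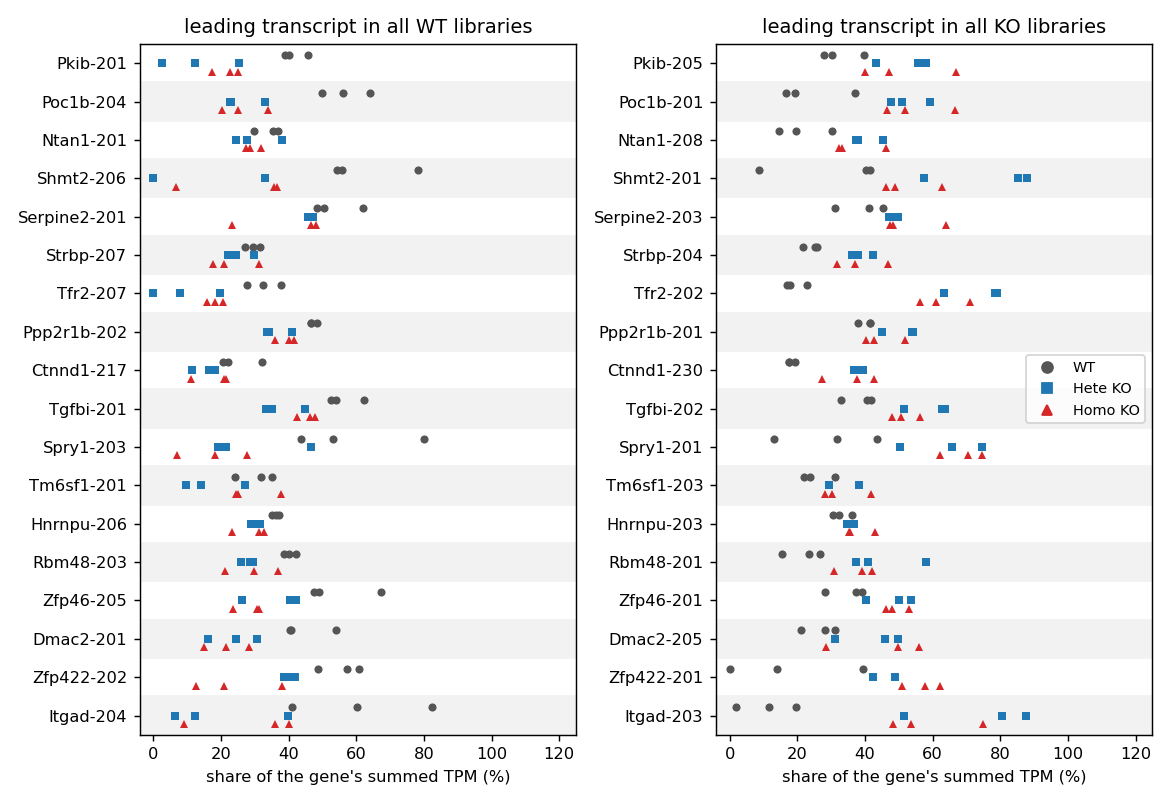
Share of the gene's TPM, in percent, of the transcript that led in all WT libraries (left) and of the one that led in all KO libraries (right), for the 18 genes where these differ, 1 point per library. For Tfr2 and Itgad the right panel shows all 6 KO points above all 3 WT points, while for Hnrnpu and Tm6sf1 the points of the groups overlap there.

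At the level of single transcripts, scaled to the whole library and not to the gene, edgeR called 0 of 55763 (0.0%), with 5429 at an unadjusted p under 0.05 and a smallest adjusted p of 0.0656. DESeq2 called 1486, limma on log2(TPM + 0.5) 18 and limma on log2(TPM + 0.1) 26. Groups did not overlap in 6.44% of tested transcripts. At gene level edgeR called 421 of 17984 genes (2.34%), 148 higher and 273 lower in KO. That gene count was 2 without Hete KO 3, 2 without Homo KO 2 and 1098 without Hete KO 1.

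The 6 lower and 6 higher transcripts with the smallest p and no overlap were taken, and none passed edgeR's threshold at transcript level. Ass1-201, which makes up 83.1% of the transcripts of argininosuccinate synthase, the enzyme that regenerates arginine, had 34.3, 43.3 and 36.5 TPM in WT. It had 5.78, 2.13 and 4.96 TPM among Hete KO libraries and 6.16, 3.87 and 4.97 TPM among Homo KO libraries, a log2 difference of −3.07 (SE 0.28, adjusted p = 0.0656). Its usage within Ass1 did not pass (adjusted p = 1), and the gene as a whole fell by 3.001 on the log2 scale (SE 0.26, adjusted p = 0.00395). The same held for Slc6a6-201 of the taurine transporter (85.2 ± 4.5 TPM in WT, 41.2 ± 9.0 in KO), Oxtr-201 of the oxytocin receptor (60.1 ± 7.88 and 11.5 ± 5.67) and Mrc2-203 of a collagen-uptake receptor (19.6 ± 2.40 and 6.46 ± 2.45). Their genes fell at gene level, with adjusted p of 0.0228, 0.0377 and 0.0410.

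Fam118b-202 behaved the other way, with a changed usage (edgeR adjusted p = 0.0114) in a gene whose log2 fold change was −0.02 (SE 0.17, adjusted p = 0.953). It had 4.78, 5.19 and 4.55 TPM in WT, 1.35, 1.71 and 2.36 in Hete KO and under 0.01 in Homo KO, and it passed limma's diffSplice and the arcsine test as well. Lpl-203 was also among the 6 lower transcripts, at 758 ± 480 TPM in WT and 54.5 ± 17.2 TPM in KO (log2 −3.89, SE 0.41, adjusted p = 0.0978). Among the 6 higher ones, Slmap-201, of a sarcolemma-associated membrane protein, had at most 0.00239 TPM in WT and 1.48 to 5.80 TPM in KO, with a changed usage (adjusted p = 6.92e-07). Ankef1-206 had 0.694 ± 0.0935 TPM in WT and 3.07 ± 0.670 in KO, and Dxo-201, of a decapping exonuclease, 0.399 ± 0.140 and 2.41 ± 0.643; neither passed the usage test. Sgce-209 and Klhl13-201 were also among the 6.

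Ago1, the targeted gene, had a mean of 17.8 TPM and did not pass at gene level (log2 fold change −0.32, SE 0.23, edgeR adjusted p = 0.429). The sources used here do not name the deleted exons, and other cells of the tissue also express Ago1, so this does not check the labels. The full-length Ago1-201 held 40.6, 52.4 and 66.7% of Ago1 in WT, 39.0, 45.8 and 56.1% among Hete KO libraries and 51.5, 48.2 and 47.8% among Homo KO libraries. The groups overlapped for Ago1-201, with means of 53.2% ± 13.1 and 48.1% ± 5.70. The NMD transcript Ago1-202 held 18.6% ± 7.59 in WT and 21.4% ± 7.78 in KO, and the protein-coding Ago1-205 held 13.6% ± 7.75 and 17.7% ± 6.22. The retained-intron transcripts Ago1-204 and Ago1-203 held 9.21% ± 6.01 and 5.40% ± 3.09 in WT, and 5.51% ± 3.70 and 7.29% ± 5.71 in KO. All 5 overlapped between groups and had an adjusted p of 1.

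Among 8 gene lists, 3 had transcripts with changed usage, where 0.537% of all tested transcripts did. With 2 or 3 calls a list, these shares are not results about the lists. Of the matrix and adhesion genes, 2 of 167 transcripts fell (1.2%) and none rose. Cd44-207, from the gene of the hyaluronan receptor, had 6.50, 13.7 and 9.46% in WT and 0 to 2.57% in KO (edgeR adjusted p = 0.0365). The call for Cd44-207 ended in each of the 9 fits that leave out 1 library (adjusted p of 0.0520 to 0.266), and it passed under 5 of 22 alternatives. Vcan-202, from the gene of the proteoglycan versican, had 1.88, 1.19 and 4.51% in WT and 0 in all KO libraries (adjusted p = 0.00202). Vcan-202 could pass the count filter only through WT, so a difference is built into its choice. Of 616 splicing factor transcripts, Rbfox2-209 rose (adjusted p = 0.0401) and Srsf11-202 fell (adjusted p = 0.00954), 0.325% of the list. Rbfox2-209 held at most 4.85% of its gene and Srsf11-202 at most 1.76%. Of 411 cytoskeletal and vesicle transcripts, Ktn1-213 and Macf1-216 rose and Itsn1-205 fell (0.73%), each at most 6.78% of its gene in any library.

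Leaving out 1 library kept the call in all 9 fits for Vcan-202, in 8 for Itsn1-205, in 6 for Srsf11-202, in 3 for Rbfox2-209 and Macf1-216 and in 2 for Ktn1-213. The adjusted p in the fits that missed reached 0.235 for Itsn1-205 (without WT 1), 0.384 for Srsf11-202 (without WT 2), 0.189 for Rbfox2-209 (without WT 3), 1 for Macf1-216 (without Homo KO 2) and 1 for Ktn1-213 (without Hete KO 3). None of these 7 transcripts passed with limma's diffSplice or on the arcsine share. In the same 3 lists diffSplice called Dcn-202 and Fn1-203 of the matrix genes, Ptbp3-201 and Ptbp3-212 of the splicing factors, and Dst-201, Dst-211 and Kif1b-202 of the cytoskeletal genes, none of which edgeR called.

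None of 287 fat and metabolic, 166 endothelial and angiogenic, 202 microRNA machinery, 495 skeletal muscle isoform and 62 circadian and immediate early transcripts passed edgeR's usage test. An unadjusted p under 0.05 was reached by 13, 8, 4, 18 and 4 of them, which is 1.98 to 6.45% of each list, against 3.97% of all tested transcripts. Limma's diffSplice called 3, 0, 1, 2 and 0 of them, against 147 of all tested. Limma on the arcsine share called none of them. Among metabolic genes the smallest p belonged to Pcx-202, from the gene of pyruvate carboxylase, with 28.3% ± 8.83 in WT and 11.7% ± 5.62 in KO (edgeR adjusted p = 0.122, limma diffSplice adjusted p = 0.0233). The groups did not overlap for Pcx-202, whose lowest WT value was 21.5% and highest KO value 21.3%.

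In the microRNA machinery, Tarbp2-213, of the Dicer partner TRBP, was under 0.01% in WT and at 6.52% ± 4.19 in KO (edgeR adjusted p = 0.0624), and Drosha-204 at 0 and 4.62% ± 3.53 (0.0912). Col15a1-203, of an endothelial basement membrane collagen, held 1.95% ± 3.09 in WT and 10.03% ± 6.06 in KO (0.238). Dbp-202, a retained-intron transcript of a clock output factor, held 3.71% ± 3.45 and 19.8% ± 6.85 (0.291), and its groups did not overlap. The sources used here do not give the hour of sampling. Shares that did not overlap between groups were found for 7 of the 62 circadian transcripts (11.3%), which come from 16 genes. They made up 2.97 to 5.39% of the other 7 lists, against 3.93% of all tested. Shares within a gene depend on each other, so the circadian figure is not a result about that list. The median absolute difference in mean share was 3.1 points in the circadian list and 1.05 to 1.93 points in the other 7, against 2.37 over all tested transcripts.

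A set of 4 values per library summarised the whole transcriptome of the 9755 genes. Retained-intron transcripts took 13.5, 13.5 and 12.6% of the TPM in WT, 13.6, 13.8 and 14.9% among Hete KO libraries and 14.6, 16.2 and 13.2% among Homo KO libraries. The means were 13.2% ± 0.527 (SD, n = 3) and 14.4% ± 1.10 (SD, n = 6), and a two-sided exact permutation test over 84 arrangements gave p = 0.131 (adjusted over the 4 values, 0.286). Homo KO 2 was the highest; without it the difference was 0.841 points, against 1.21 with it. Nonsense-mediated decay transcripts took 4.37% ± 0.0580 in WT and 4.54% ± 0.447 in KO (exact permutation p = 0.607, adjusted 0.810).

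The effective number of isoforms per gene, the exponential of the Shannon entropy of the shares, was 3.22 ± 0.111 in WT and 3.33 ± 0.0671 in KO over 9730 genes (exact permutation p = 0.143, adjusted 0.286). The annotated 3′ UTR length, weighted by share over the coding transcripts of 7718 genes, was 1164.1 ± 14.8 bases in WT and 1164.6 ± 34.9 bases in KO (exact permutation p = 0.988, adjusted 0.988). Homo KO 2 had 1093.7 bases, and the other 5 KO libraries had 1173.0 to 1183.9. None of the 4 values passed, and the smallest p that 84 arrangements can give is 0.0119.

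**Figure D5:**
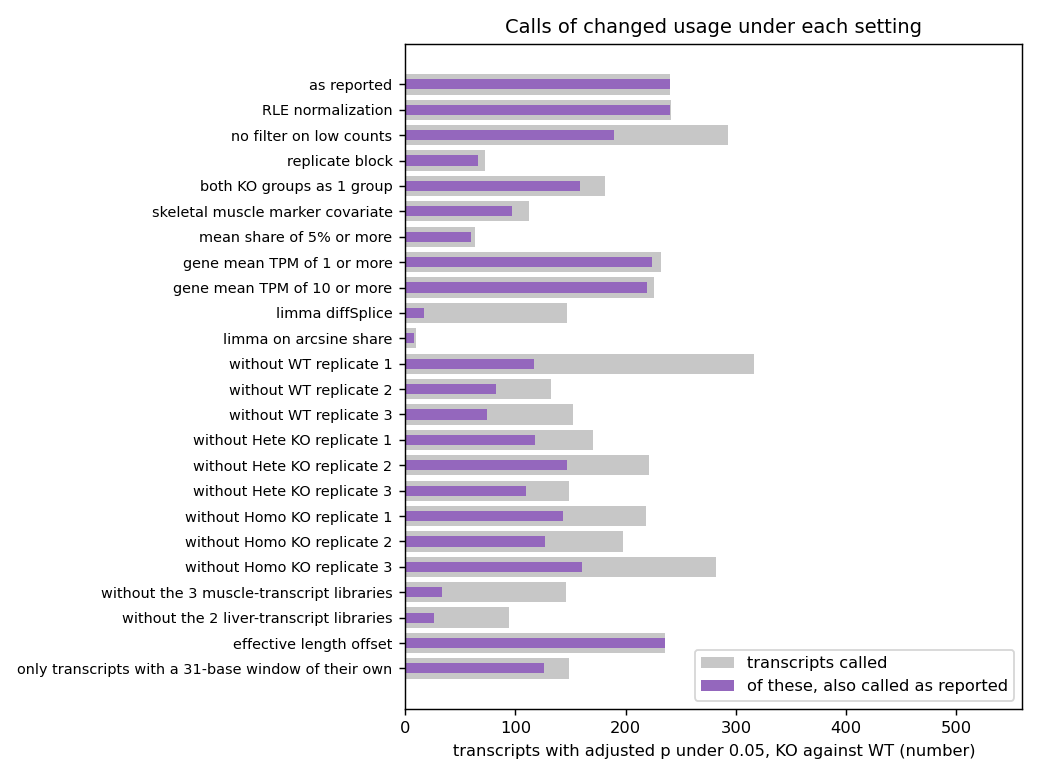
Number of transcripts with changed usage between KO and WT (edgeR adjusted p under 0.05, or the test named) under each setting, with the number that are among the 240 calls in purple. The grey bars run from 10 (limma on the arcsine share) to 316 (without WT replicate 1), and the purple bars are shortest for both limma tests and without the muscle or liver libraries.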

How the data were processed

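RNA of whole subcutaneous fat was sequenced by the authors in 9 libraries, 3 each of WT, Hete KO and Homo KO, grouped by the genotype label. The deposited files hold, per the file headers, estimated counts (expected counts, not normalized) and TPM for each of 113193 transcripts, with length and effective length. The deposited TPM values are scaled to effective length and library total. Reads were placed on build mm10, per the submitters' processing notes. Which quantifier was run, and how, is not given in the sources used here. Estimated counts divide reads among transcripts that share sequence, so a share is a model estimate, and its counting error cannot be read from the files.

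Transcripts were matched to GENCODE M21 by identifier: 111450 (98.5%) matched, 109382 with the same version, and the 1743 unmatched (0.566 to 1.03% of the counts) were left out. Estimated counts were rounded. Of the member transcripts, 3549 were at 0 in all libraries, and 44695 of 64609 passed edgeR's filterByExpr in genes with 2 or more passing transcripts; 503 member genes were not tested. All 9 libraries were fitted by group, which left 6 residual degrees of freedom (R 4.3.3, edgeR 4.0.16, TMM, quasi-likelihood; limma 3.58.1, DESeq2 1.42.0; Python 3.11.15). KO is the mean of both KO groups. Usage was tested with diffSpliceDGE and levels with glmQLFTest, with Benjamini-Hochberg adjustment over all tested features at 0.05. Tests run on simulated data found the direction of changed transcripts, and the usage test called more unchanged transcripts than its threshold allows. Mean fragment length was inferred as length minus effective length plus 1 for transcripts over 3000 bases.

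Named transcripts are those of Ago1 with a mean share of 5% or more, and the 15 genes with the smallest usage p among calls of 10 points or more without overlap. To these come up to 6 transcripts each way by level with a mean TPM of 1 or more, and the leading members of 8 lists. Predicted genes and pseudogenes are left out. Where other transcripts are named, they were chosen after their values were seen. The members, lists and alternatives were chosen with earlier results of these data known. The alternatives were RLE normalization, no filter, gene minimums of 1 and 10 TPM, a minimum share of 5%, the replicate number as a block, both KO groups as 1, a muscle covariate, limma and DESeq2 (levels), and leaving out each library, the 3 muscle or the 2 liver libraries. An effective-length offset and the restriction to transcripts with a 31-base window of their own were added after the data were seen. The labels number the libraries within a group and do not say more of the animals, so p-values measure the spread between these samples. One of the transcripts that the naming rule picked is not reported here.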

Additional observations from a re-analysis of the deposited data

Results flagged for a closer look

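In Homo KO 2, 4 values stood apart from those of the other 5 KO libraries. Its inferred mean fragment length was 267.9 bases, against 185.4 to 199.9. Member genes held 65.36% of its matched TPM, against 55.74 to 59.16%. Its share-weighted 3′ UTR length was 1094 bases, against 1173 to 1184, and its share of Macf1-216, a transcript of a microtubule-actin crosslinker gene, was 5.942%, against 0 to 1.265%. Arpp19-209, from the gene of a phosphatase inhibitor, stood apart in Homo KO 1 at 7.456%, against 0.006595 to 2.698%. Sin3a-204 stood apart in Hete KO 2 at 21.98%, against 1.211 to 6.437%; Hete KO 2 also held the most muscle transcripts, whose part in this was not tested. These are 6 of 27 groups of 6 libraries looked at. The rule used marks about 1 group in 20 by chance where values are normally distributed and groups independent. Shares near 0 need not be so, and 4 of the 6 come from 1 library, so no excess over chance is read from them.

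The usage of 152 transcripts differed between Homo KO and Hete KO by edgeR's test of that difference. Among transcripts looked at by name, the log2 differences in usage (Homo KO minus Hete KO) were −4.74 for Adi1-202 (adjusted p = 0.0358), −6.97 for Dnm2-201 of a dynamin gene (0.0021), −1.59 for Phf3-201 (0.0288) and −3.83 for Azin2-201 (0.0162). They were 4.04 for Acsl1-208 of an acyl-CoA synthetase gene (0.000624), 4.71 for Sparc-208 of a matricellular protein gene (0.0162) and 3.97 for Ccser2-201 (0.00842). The higher values of these last 3 lay in 1 library: Homo KO 2 held 15.3% of Acsl1-208, 2.98% of Sparc-208 and 4.92% of Ccser2-201, against at most 0.197, 0.0196 and 0.106% in the other 5 KO libraries.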

How the results depend on the processing

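Shares are model estimates with no depth of their own, 95.8% of the calls had a library under 0.5 counts, and WT rests on 3 libraries of which each carries muscle or liver transcripts. Counts below are in the order usage of KO, Hete KO and Homo KO against WT, Homo KO against Hete KO, then genes by F test, against 240, 176, 278, 152 and 122 as reported. RLE normalization, no filter, both KO groups as 1 (where run), gene minimums of 1 or 10 TPM and the effective-length offset stayed within 1.5 times for all of these. The cause of the changes below was not tested.

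With the replicate number as a block (replicate block) the counts were 72, 58, 86, 71 and 47. Deviations of same-numbered libraries correlated at −0.0354 to 0.0926 and those of differently numbered ones at −0.1093 to 0.0474. Not every library correlated best with its own number. The labels do not say what the number stands for, and whether it marks a shared batch was not tested. With the muscle covariate they were 112, 95, 133, 126 and 73, with a minimum share of 5% 63, 33, 51, 18 and 48, and with limma's diffSplice 147, 34, 90, 16 and 37. Limma on the arcsine share called 10 and the Simes method 191 genes. Without the 3 muscle libraries they were 146, 101, 127, 115 and 228, and without the 2 liver libraries 94, 51, 94, 228 and 78. Among transcripts with a window of their own they were 149, 108, 201, 102 and 71. Leaving out 1 library gave 132 to 316, 60 to 243, 105 to 326, 65 to 244 and 61 to 332, with the ends for KO without WT 2 and without WT 1. Of the 240, 82 passed without WT 2, 74 without WT 3, 117 without WT 1, 33 without the muscle and 26 without the liver libraries.

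For transcript levels, 0 as reported became 3 with no filter, 18 and 26 with limma at pseudocounts of 0.5 and 0.1, 1486 with DESeq2, 2 without the liver libraries and 0 to 1 leaving out 1 library. For gene levels, 421 became 760, 12, 6, 1831 and 2 under the same settings, 102 without the muscle libraries and 2 to 1098 leaving out 1 library.

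The 3′ UTR difference of 0.516 bases turned to −1.239 at 10 TPM, −10.86 without the muscle and −8.955 without the liver libraries, and ran from −7.983 to 14.69 leaving out 1 library. Of the transcripts named, usage log2 changes turned sign for Itgad-204 (−0.1085 with the block, −1.72 with diffSplice, −0.4185 on the arcsine scale). Without the muscle libraries they turned for Srsf11-202 (4.28), Phf3-201 (0.8148), Tfr2-207 (0.1811) and Ctnnd1-217 (0.05696). Without the liver libraries they turned for Ago1-201 (0.08218), Ago1-202 (−0.3099), Ago1-203 (−0.3657), Per1-203 (5.898), Ccser2-201 (2.814), Dlc1-206 (0.3162), Sgce-207 (0.3506) and Zfp606-204 (0.06935). Leaving out 1 library gave −0.09802 to 0.02839 for Ago1-201, −0.126 to 0.4192 for Ago1-202, −0.09456 to 0.6506 for Ago1-203, −0.472 to 2.771 for Acsl1-208, −0.09799 to 0.00276 for Strbp-207 and −0.04077 to 0.1828 for Itgad-204.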
